A study of Mus musculus with 6 samples.

Results

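The mitotic spindle and kinetochore genes are 43 genes whose products drive, build or police cell division, and their RNA was compared between young and aged articular cartilage of the mouse. The members were chosen by name, with earlier results of these data known. All 43 were found among the 33971 genes of the deposited table and passed the filter on low counts, which left 20397 genes tested. The series holds 3 libraries of articular cartilage from 2-month-old WT (wild-type) mice and 3 from 18-month-old WT mice, with no treatment named for either age, and it was made to follow gene expression in cartilage as mice age. The methods describe the mice as male and the samples as independent, but not whether a library came from 1 animal or from several, so p-values here measure the spread between these libraries. The 6 libraries held between 48171507 and 59085179 counts.

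A dividing cell condenses its chromosomes, attaches each of them through a kinetochore to the microtubules of the spindle, waits until every attachment is made, pulls the copies apart and then pinches itself apart. Most genes for this work are transcribed late in the cell cycle and are nearly silent in cells that do not divide, so their RNA in a tissue follows the number of cells in division. Articular chondrocytes of adult mice are known to divide rarely. Blood cell precursors of the bone marrow, which lies close under the cartilage of the joint, divide often.

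The 43 members fall into 8 groups by role. Mki67 and Top2a mark and untangle the chromosomes of dividing cells, and the mitotic cyclins Ccna2, Ccnb1 and Ccnb2 switch on the kinase Cdk1. Bub1, Bub1b, Mad2l1 and Ttk form the checkpoint that holds back anaphase, which Cdc20 and Ube2c then trigger. The kinases Aurka, Aurkb and Plk1 were grouped with the spindle factor Tpx2 and with Birc5, Incenp and Cdca8, the partners of Aurkb in the chromosomal passenger complex. Kif2c, Kif4, Kif11, Kif15, Kif20a and Kif23 are mitotic kinesins, motors that walk on or take apart microtubules. Cenpa, Cenpe, Cenpf, Ndc80, Nuf2, Spc24 and Spc25 belong to the centromere and the kinetochore. Prc1, Anln, Ect2, Racgap1, Nusap1, Hmmr and Dlgap5 bundle the spindle or drive cytokinesis, and Ncapg, Ncapd2, Smc2 and Smc4 are subunits of condensin.

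The promoters of these genes share short sequence elements more often than other promoters do. RefSeq promoters of build GRCm38.p6, each 250 bases before to 50 bases after an annotated start of transcription, were found for 35 of the 43 members, as 37 promoters. The element named the cell cycle genes homology region, TTTGAA or TTCAAA on the other strand, is known as a docking site of the complexes that repress or activate late cell cycle genes. It was in 30 of the 37 promoters (81.1%), against 17.9% of 32851 promoters of all genes. The CCAAT box, searched as CCAAT or ATTGG, is bound by the factor NF-Y and was in 29 of the 37 (78.4%), against 37.4% of all. Both elements were in 26 of the 37 (70.3%), against 6.95% of all promoters. The E2F site of G1 and S phase genes, searched as TTTGGCGC or TTTCGCGC on either strand, was in 3 of the 37 (8.11%), those of Cdk1, Kif15 and Ncapd2, against 0.813% of all. The letters ATTGG and TTTGAA can overlap by 1 base, and the median GC content was 59.0% in the members' promoters and 52.7% in all. A match is only a match of letters, and binding was not measured.

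The stretches from 120 bases before to 30 bases after the start are shown for 7 members, with the homology region and CCAAT matches in capitals and the coding strand read 5′ to 3′. Cdk1 (chr10:69352883-69353032, minus strand), Ccnb2 (chr9:70421525-70421674, minus strand), Top2a (chr11:99024160-99024309, minus strand) and Kif11 (chr19:37376262-37376411, plus strand) hold both elements, as 26 of the 37 promoters do. Mad2l1 (chr6:66535101-66535250, plus strand) and Birc5 (chr11:117849117-117849266, plus strand) hold neither, and Anln (chr9:22389177-22389326, minus strand) holds the homology region alone. These 3 are shown because Birc5 had the largest fitted difference between the ages of all members and Anln and Mad2l1 the smallest.
Cdk1: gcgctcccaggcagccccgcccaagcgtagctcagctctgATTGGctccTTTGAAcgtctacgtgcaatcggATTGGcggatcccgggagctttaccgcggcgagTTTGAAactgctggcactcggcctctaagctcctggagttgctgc
Ccnb2: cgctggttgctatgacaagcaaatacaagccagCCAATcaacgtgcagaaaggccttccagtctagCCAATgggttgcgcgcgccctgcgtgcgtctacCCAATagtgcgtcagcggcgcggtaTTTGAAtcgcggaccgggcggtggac
Top2a: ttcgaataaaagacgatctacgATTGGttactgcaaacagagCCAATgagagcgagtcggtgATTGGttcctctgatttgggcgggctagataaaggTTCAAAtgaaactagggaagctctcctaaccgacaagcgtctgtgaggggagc
Kif11: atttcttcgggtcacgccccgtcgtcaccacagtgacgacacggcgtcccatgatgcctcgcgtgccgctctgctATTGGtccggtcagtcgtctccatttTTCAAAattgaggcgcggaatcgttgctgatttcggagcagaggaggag
Mad2l1: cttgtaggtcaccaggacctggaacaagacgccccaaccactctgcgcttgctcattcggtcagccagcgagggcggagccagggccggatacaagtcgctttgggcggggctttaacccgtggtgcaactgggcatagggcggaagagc
Birc5: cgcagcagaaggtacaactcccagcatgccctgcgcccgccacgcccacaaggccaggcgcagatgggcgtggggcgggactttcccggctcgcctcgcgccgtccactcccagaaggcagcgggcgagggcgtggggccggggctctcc
Anln: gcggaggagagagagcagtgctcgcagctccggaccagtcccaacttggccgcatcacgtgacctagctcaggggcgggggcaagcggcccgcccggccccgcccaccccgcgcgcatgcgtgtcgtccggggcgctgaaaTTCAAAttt

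Counted from the start of transcription, which is base 1 with the base before it as −1, the first base of the homology region lay at a median position of −5. Of its 39 matches, 28 were within 50 bases of the start. CCAAT matches lay further upstream, at a median position of −71, and 43 of 67 were within the 100 bases before the start. Ect2 and Prc1 enter with overlapping promoters, so their sites are counted again in each promoter. In Ccnb2 3 CCAAT boxes at −87, −54 and −21 preceded a homology region at 5. Top2a, with 6 CCAAT matches, and Ube2c, also with 6, held the most of any member. Nuf2 and Nusap1 held neither element in this window, like Mad2l1 and Birc5, which makes 4 of 37 promoters (10.8%) against 51.7% of all. Among 79 other mitotic genes named further on, 40.5% of 79 promoters held the homology region, and among 35 DNA replication genes 21.9% of 32 promoters held it and 25.0% held an E2F site. These shares are descriptions of lists chosen by hand, with no test.

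**Figure D1:**
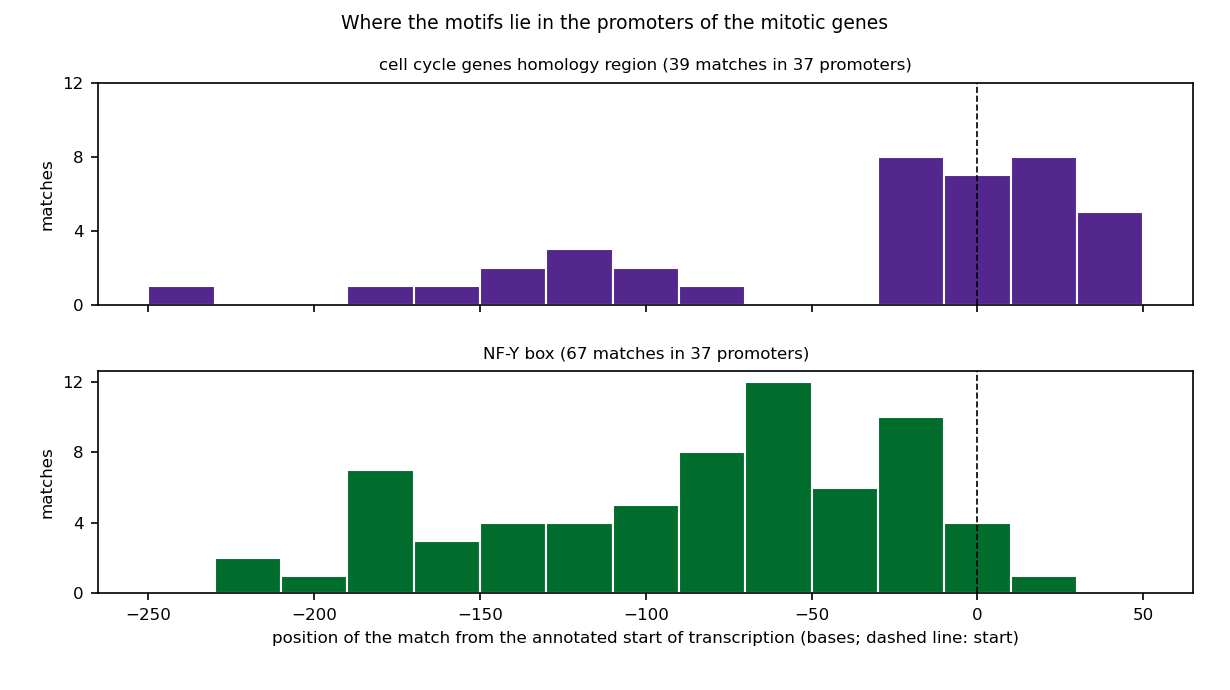
Number of matches (vertical axis) of the cell cycle genes homology region (top) and of the CCAAT box bound by NF-Y (bottom) by their distance in bases from the annotated start of transcription (horizontal axis, bins of 20 bases), over 37 promoters of 35 members. The 39 matches of the homology region gather around the start, and the 67 matches of the CCAAT box lie mostly before it. Sites in the overlapping promoters of Ect2 and Prc1 are counted in each promoter.

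The libraries differed within an age, and 2-month replicate 2 stood apart. Chondrocyte markers took 7.54% to 8.87% of the counts of the 2-month libraries and 0.195% to 0.846% of the 18-month libraries. Of such genes 16 of 16 were called lower at 18 months, where 21.3% of all genes tested were (the limits of a call are given with the tests). Matn1 and Matn3, matrilins of cartilage, had 0 counts in 18-month replicate 3. Markers of erythroid and neutrophil precursors were high in all 18-month libraries and at 2 months highest in replicate 2, as set out after the members. The young libraries held 88239 to 102417 counts of Xist, which coats the inactive X, against 11 to 30 in the aged ones, and for Kdm5d and Ddx3y of the Y chromosome the counts were 0 to 10 in young and 1680 to 4839 in aged libraries. This is the pattern of female mice at 2 months and of male mice at 18 months, so sex and age cannot be told apart. In bulk tissue, fewer cells of a type and less RNA per cell cannot be told apart either.

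Mitotic RNA was scarce in the young cartilage and plentiful in the aged libraries. The 43 genes together took 0.0216% of all counts in 2-month replicate 1 (Wilson 95% interval 0.0212% to 0.0221%), 0.201% in replicate 2 (0.200% to 0.202%) and 0.0364% in replicate 3 (0.0358% to 0.0369%). They took 0.669%, 0.661% and 0.656% of the counts in 18-month replicates 1, 2 and 3. The intervals cover counting error only and were far narrower than the differences among the 2-month libraries. The 3 aged libraries were alike, the 3 young ones were not, and the lowest aged share was 3.26 times the highest young one. Summed FPKM, which scales counts by transcript length and library size, was 34.2, 324 and 57.4 at 2 months and between 1114 and 1133 at 18 months.

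Every one of the 43 members was lower in each 2-month library than in each 18-month library (normalized counts), a pattern that 33.9% of all genes tested also showed. 2-month replicate 2 was the highest and replicate 1 the lowest of the young libraries for 43 of 43 members. The mean normalized count of the aged libraries exceeded that of 2-month replicate 2 by a median of 3.37-fold, from 2.03-fold for Anln to 4.88-fold for Birc5. It exceeded replicate 3 by a median of 20.4-fold, from 3.04-fold for Anln to 44.3-fold for Mki67, and replicate 1 by 49.3-fold, from 3.76-fold for Anln to 134-fold for Mki67. The coefficient of variation of a member's normalized counts among the 3 libraries of an age had a median of 6.32% at 18 months and 125% at 2 months. Thus the size of the difference between the ages rested on which young library was taken, and its direction did not.

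**Figure D2:**
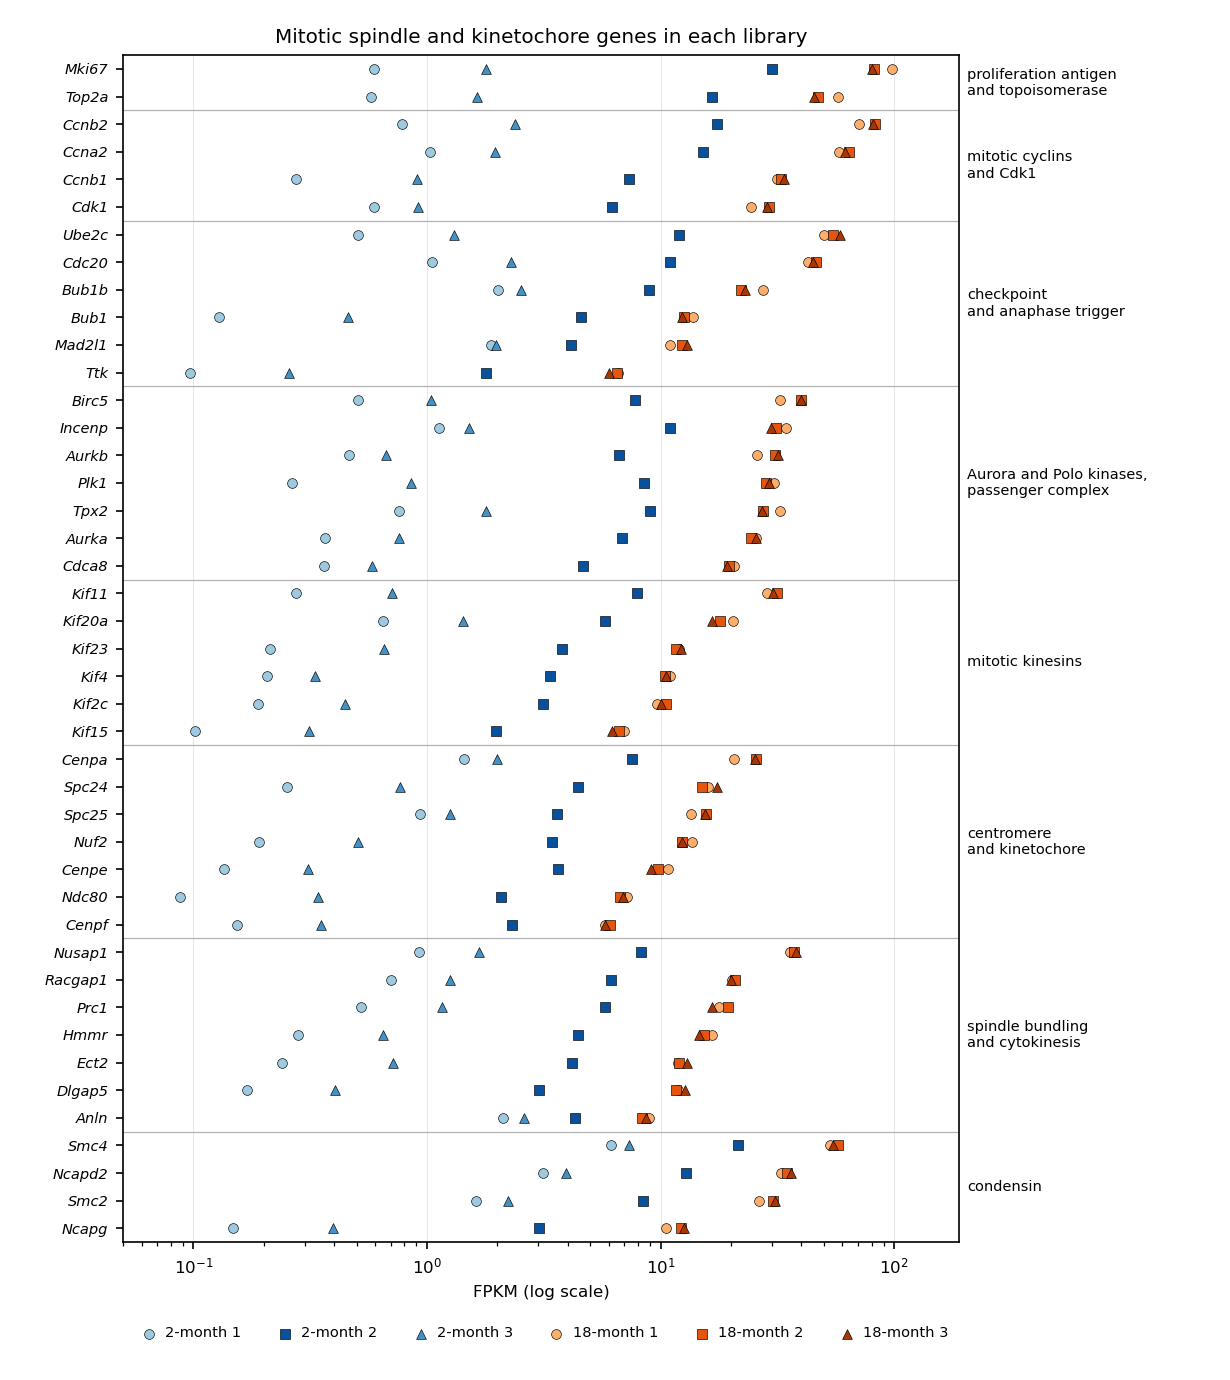
FPKM (horizontal axis, log scale) of the 43 mitotic genes (vertical axis, by role) in each library, with 2-month libraries in blue and 18-month libraries in orange and brown. The aged libraries lie close together to the right of all young ones, and 2-month replicate 2 (dark blue squares) lies between them and the other young libraries for each gene.

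Tested gene by gene, 33 of the 43 members were higher at 18 months and 0 lower, with edgeR's quasi-likelihood test, a Benjamini-Hochberg adjusted p below 0.05 and a log2 fold change above 1. At an unadjusted p below 0.05, 40 were higher and 0 lower, and DESeq2 and limma on log2(FPKM + 0.1) each called 43 higher and 0 lower. The same limits called 14.9% of all genes tested higher, and 21.3% lower with a log2 fold change below −1. Of all genes, 27.6% were higher at an unadjusted p below 0.05, and DESeq2 called 16.1% and limma 20.3% higher at the same limits, each over the genes it gave an adjusted p. The median log2 fold change of the members was 3.01, from 1.46 for Anln to 3.58 for Birc5, and that of all genes was −0.02. The 10 members not called (Mki67, Top2a, Bub1, Plk1, Kif11, Kif4, Cenpe, Cenpf, Ndc80 and Ect2) had log2 fold changes between 2.64 and 3.34 and adjusted p-values between 0.0543 and 0.118. With 3 libraries against 3, an exact permutation test of a single gene cannot go below p = 0.1. The calls depended on single libraries. Without 2-month replicate 2, all 43 were called, where 23.3% of all genes were called higher, and the median log2 fold change was 4.88. Without 2-month replicate 3 only 5 were called (Mad2l1, Spc25, Anln, Smc2 and Smc4), where 10.0% of all genes were. Without 18-month replicate 1, 2 or 3 there were 9, 8 and 8, where 11.2%, 9.90% and 9.81% of all genes were called higher. Without 2-month replicate 1 there were 24, against 12.5% of all genes. Mad2l1, Spc25 and Smc2 were called in each of the 17 other fits tried, and every member's log2 fold change was above 0 in each of them.

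**Figure D3:**
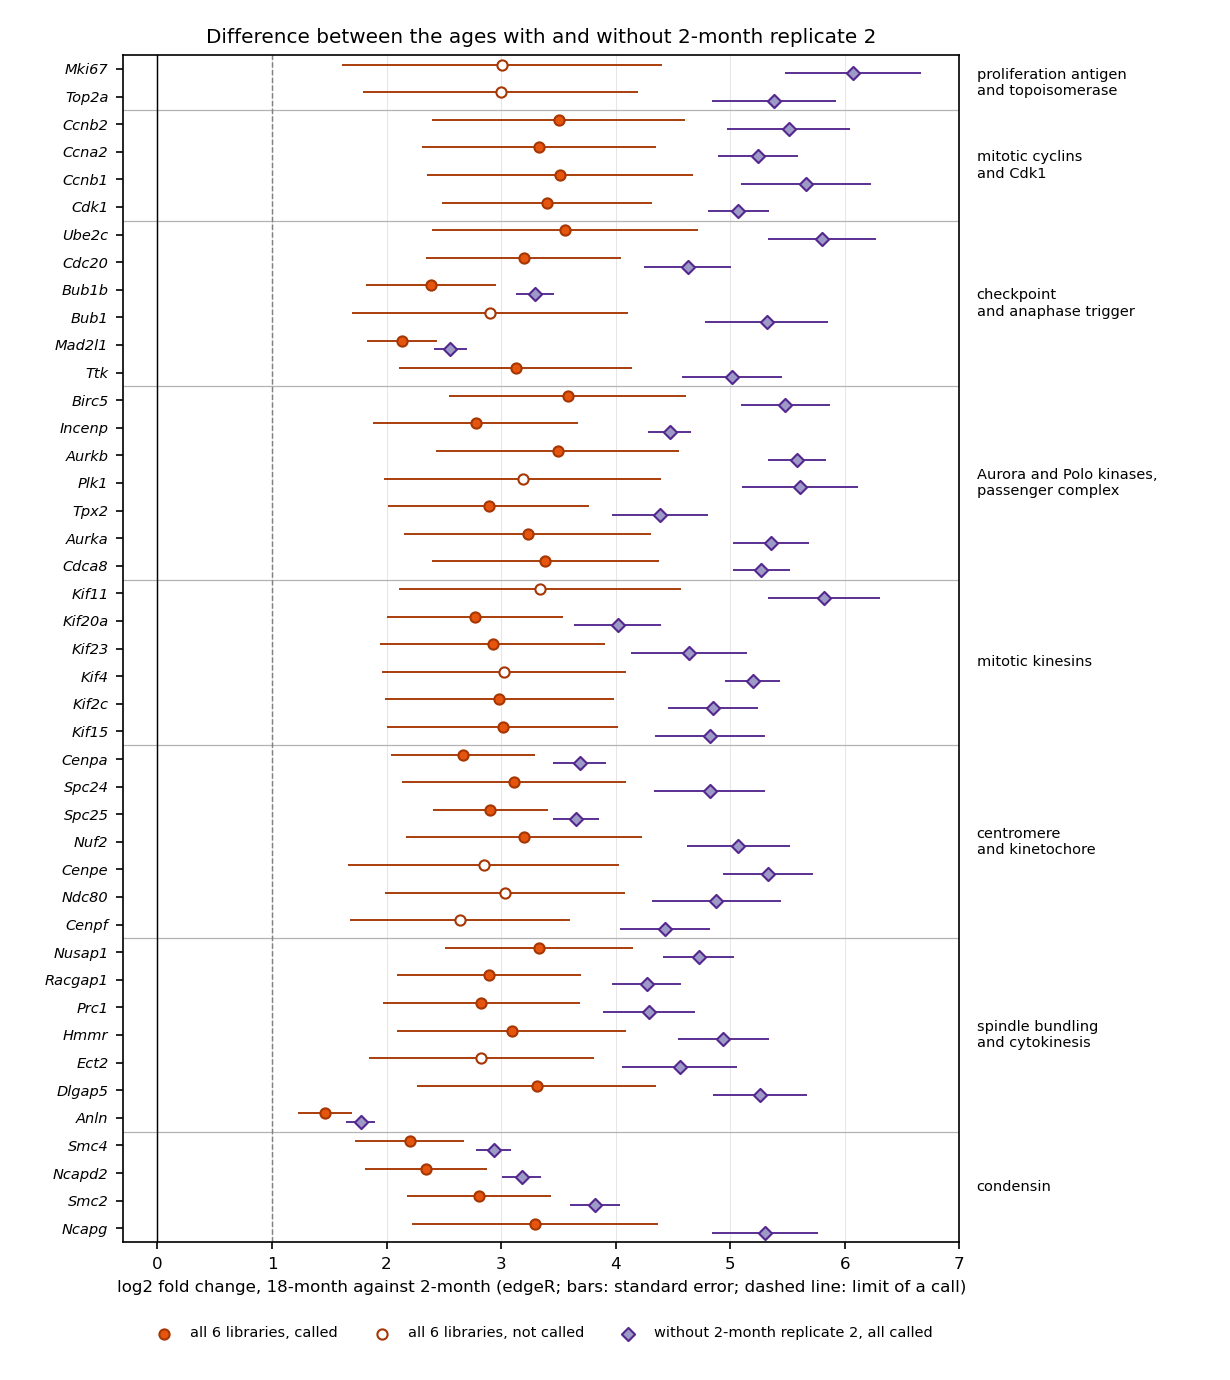
Log2 fold change of each member, 18-month against 2-month (horizontal axis, edgeR, bars standard error), with all 6 libraries (circles, filled where called) and without 2-month replicate 2 (diamonds). Leaving that library out moved the median from 3.01 to 4.88 and narrowed the standard errors.

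Mki67 and Top2a were higher in each 18-month library than in each 2-month library, as were 33.9% of all genes tested, but neither was called. Mki67 (ENSMUSG00000031004, chromosome 7, 135689784 to 135716361), whose protein coats mitotic chromosomes and is the usual tissue marker of dividing cells, had an FPKM of 0.595, 30.0 and 1.79 in the 2-month libraries and 97.3, 82.2 and 80.3 in the 18-month libraries. It was lowest in 2-month replicate 1, and the ages did not overlap. Its mean level of 10.8 ± 16.6 FPKM in young cartilage (SD, n = 3) compared with 86.6 ± 9.33 FPKM in aged cartilage (SD, n = 3), and the log2 fold change of 3.01 ± 1.40 (standard error) was not past the limits (edgeR adjusted p = 0.118). Top2a (ENSMUSG00000020914, chromosome 11, 98992943 to 99024189), which cuts and rejoins DNA to untangle sister chromosomes, had an FPKM of 0.577, 16.5 and 1.63 at 2 months and 57.6, 47.1 and 45.4 at 18 months. Here too the ages did not overlap, and the log2 fold change was 3.00 ± 1.20 (edgeR adjusted p = 0.0815). Both were called without 2-month replicate 2, where 23.3% of all genes were called higher. Their log2 fold changes were then 6.07 ± 0.60 for Mki67 and 5.38 ± 0.54 for Top2a.

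All 4 genes of the mitotic cyclins and their kinase were called higher, where 14.9% of all genes tested were. Ccnb2 (ENSMUSG00000032218, chromosome 9, 70407692 to 70421547), a B-type cyclin, had the highest level of the group, with an FPKM of 0.785, 17.4 and 2.39 at 2 months and 70.6, 82.5 and 81.2 at 18 months. Its log2 fold change was 3.50 ± 1.10 (edgeR adjusted p = 0.0415). Ccnb1 (ENSMUSG00000041431, chromosome 13, 100778650 to 100786570), the B-type cyclin that brings cells into mitosis, had an FPKM of 0.275, 7.33 and 0.907 at 2 months and 31.5, 32.6 and 33.9 at 18 months, a log2 fold change of 3.51 ± 1.16 (edgeR adjusted p = 0.0473). The order of the young libraries was the same in both cyclins, with replicate 2 closest to the aged libraries. Cdk1 (ENSMUSG00000019942, chromosome 10, 69335146 to 69352938), the kinase that these cyclins activate, went from 0.594, 6.17 and 0.911 FPKM to 24.4, 29.0 and 28.6 FPKM. The log2 fold change of Cdk1 was 3.40 ± 0.92 (edgeR adjusted p = 0.0257). Ccna2, the cyclin of S phase and early mitosis, had an FPKM of 1.03, 15.1 and 1.96 at 2 months and 57.9, 63.9 and 61.8 at 18 months and the smallest change of these 4, at 3.33 ± 1.02 (edgeR adjusted p = 0.038). The 4 genes had log2 fold changes between 5.07 and 5.66 without 2-month replicate 2.

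Of 6 genes of the spindle checkpoint and the anaphase trigger, 5 were called higher, where 14.9% of all genes tested were. Ube2c (ENSMUSG00000001403, chromosome 2, 164769898 to 164778822), the enzyme that starts ubiquitin chains on the substrates of the anaphase-promoting complex, had an FPKM of 0.507, 12.0 and 1.30 at 2 months and 50.2, 54.7 and 58.6 at 18 months. Its log2 fold change of 3.56 ± 1.16 was the largest of the group (edgeR adjusted p = 0.0462). Mad2l1 (ENSMUSG00000029910, chromosome 6, 66535390 to 66547220), which blocks Cdc20 until the chromosomes are attached, had an FPKM of 1.87, 4.12 and 1.97 at 2 months and 10.9, 12.3 and 13.0 at 18 months. Its young libraries lay closer together than those of Ube2c, and its log2 fold change of 2.13 ± 0.31 was the smallest of the group and had a low adjusted p-value (edgeR, 0.0035). Cdc20, the activator of the complex, Bub1b, which also holds Cdc20 in check, and Ttk, the kinase at the head of the checkpoint, rose with log2 fold changes of 3.20, 2.39 and 3.13. Bub1, a checkpoint kinase at the kinetochore, had a value of 2.90 ± 1.21 and was not called (edgeR adjusted p = 0.0898). All 6 were called without 2-month replicate 2, from 2.56 for Mad2l1 to 5.80 for Ube2c, where 23.3% of all genes were called higher.

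Of the 7 genes of the Aurora and Polo kinases and the chromosomal passenger complex, 6 were called higher, against 14.9% of all genes. Birc5 (ENSMUSG00000017716, chromosome 11, 117849251 to 117855743), known as survivin, had an FPKM of 0.506, 7.75 and 1.04 at 2 months and 32.5, 40.0 and 39.7 at 18 months. It had the highest level of this group and the largest log2 fold change of all members, 3.58 ± 1.03 (edgeR adjusted p = 0.0316). Incenp (ENSMUSG00000024660, chromosome 19, 9872296 to 9899551), the scaffold of the same complex, had an FPKM of 1.12, 11.0 and 1.52 at 2 months and 34.4, 31.0 and 29.6 at 18 months. Its log2 fold change of 2.78 ± 0.90 was the smallest of this group (edgeR adjusted p = 0.0442). The other parts of the complex, Aurkb and Cdca8, rose by 3.49 and 3.39 on the log2 scale. Aurka, the kinase of the spindle poles, and Tpx2, which activates it, rose by 3.23 and 2.89. Plk1, the Polo kinase of mitotic entry and exit, had a log2 fold change of 3.19 ± 1.21 and was not called (edgeR adjusted p = 0.0706).

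Among the 6 mitotic kinesins, 4 were called higher, where 14.9% of all genes tested were. Kif11 (ENSMUSG00000012443, chromosome 19, 37376403 to 37421859), the motor that pushes the spindle poles apart, had the highest level, with an FPKM of 0.276, 7.91 and 0.709 at 2 months and 28.4, 31.5 and 30.3 at 18 months. Its log2 fold change of 3.34 ± 1.23 was the largest of the group and was not past the limits (edgeR adjusted p = 0.0649). Kif20a, a motor of the spindle midzone, had the smallest difference, from an FPKM of 0.650, 5.78 and 1.43 to one of 20.4, 18.0 and 16.6, and was called with a log2 fold change of 2.77 ± 0.77 (edgeR adjusted p = 0.0278). The smaller standard error of Kif20a went with a smaller gap between its young libraries. Kif4 (ENSMUSG00000034311, X chromosome, 100625737 to 100727214), a motor on chromosome arms, is the only member on a sex chromosome. Its FPKM was 0.208, 3.35 and 0.331 at 2 months and 10.9, 10.4 and 10.5 at 18 months, a log2 fold change of 3.03 ± 1.07 (edgeR adjusted p = 0.0575), close to the median of the 43. Kif2c, which takes microtubules apart at the kinetochore, Kif15, which shares work with Kif11, and Kif23, the motor of the midbody, rose by 2.98, 3.01 and 2.93.

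Of the 7 centromere and kinetochore genes, 4 were called higher, where 14.9% of all genes tested were. Cenpa (ENSMUSG00000029177, chromosome 5, 30666777 to 30674830), the histone variant that marks the centromere, had an FPKM of 1.45, 7.56 and 1.99 at 2 months and 20.7, 25.6 and 25.2 at 18 months. It had the highest level of the group, and its log2 fold change was 2.67 ± 0.63 (edgeR adjusted p = 0.0165). The Ndc80 complex, the hook between kinetochore and microtubule, has its 4 subunits among the members. Nuf2 (ENSMUSG00000026683, chromosome 1, 169497934 to 169531464) had the largest change of the group, from 0.192, 3.42 and 0.507 FPKM to 13.6, 12.4 and 12.3 FPKM, with a log2 fold change of 3.20 ± 1.03 (edgeR adjusted p = 0.0438). Spc24 and Spc25 rose by 3.11 ± 0.98 and 2.91 ± 0.50. Ndc80 itself had 3.03 ± 1.05 and missed the limit (edgeR adjusted p = 0.0543). Thus 3 of the 4 subunits were called, with log2 fold changes that differed by less than 1 standard error. Cenpe, a motor of the kinetochore, and Cenpf, a large kinetochore protein, had log2 fold changes of 2.85 and 2.64 and were not called, and Cenpf (0.154, 2.30 and 0.351 FPKM at 2 months, 5.79, 6.09 and 5.80 at 18 months) had the smallest of the group (edgeR adjusted p = 0.0634).

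Of the 7 genes of spindle bundling and cytokinesis, 6 were called higher, where 14.9% of all genes tested were. Nusap1 (ENSMUSG00000027306, chromosome 2, 119618298 to 119650160), which bundles spindle microtubules around chromosomes, had an FPKM of 0.928, 8.28 and 1.67 at 2 months and 35.7, 37.3 and 38.0 at 18 months. The difference was 3.33 ± 0.82 on the log2 scale (edgeR adjusted p = 0.0191). Anln (ENSMUSG00000036777, chromosome 9, 22332012 to 22389188) encodes anillin, a scaffold of the cleavage furrow that also binds the actin of the cell cortex. It had an FPKM of 2.11, 4.30 and 2.60 at 2 months and 8.94, 8.36 and 8.66 at 18 months. The ages did not overlap, but its log2 fold change of 1.46 ± 0.24 was the smallest of all members (edgeR adjusted p = 0.00484). Prc1, the bundler of the spindle midzone, Racgap1, the partner of Kif23, Hmmr and Dlgap5, both spindle proteins, rose by 2.83 to 3.31. Ect2, which switches on the contractile ring, had a value of 2.83 ± 0.98 and was not called (edgeR adjusted p = 0.0551).

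All 4 condensin genes were called higher, where 14.9% of all genes tested were. The changes of 3 of them were below the median of the 43. Smc4 (ENSMUSG00000034349, chromosome 3, 69004738 to 69034623), an ATPase of the condensin ring, had an FPKM of 6.12, 21.5 and 7.34 at 2 months and 53.1, 57.4 and 54.9 at 18 months. Its mean of 11.6 ± 8.52 (SD, n = 3) was the highest of the 43 members at 2 months. The log2 fold change was 2.20 ± 0.47 (edgeR adjusted p = 0.012), and those of its partner Smc2 and of Ncapd2 were 2.81 ± 0.63 and 2.34 ± 0.53. Ncapg (ENSMUSG00000015880, chromosome 5, 45669919 to 45700546), found in condensin I alone, went from 0.148, 3.02 and 0.396 FPKM to 10.5, 12.2 and 12.6 FPKM and had the largest change of the group, 3.30 ± 1.07 (edgeR adjusted p = 0.0458). Smc2 and Smc4 also serve condensin II and are known to have work outside mitosis. Without 2-month replicate 2 Smc4 had a log2 fold change of 2.93 and Ncapg one of 5.31.

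The make-up of the mitotic signal differed among the young libraries and hardly among the aged ones. Condensin made up 32.2% of the members' summed FPKM in 2-month replicate 1, 24.3% in replicate 3 and 14.1% in replicate 2, against 11.0% to 11.9% in the 18-month libraries. Mki67 and Top2a together went the other way, with 3.43%, 5.96% and 14.3% in 2-month replicates 1, 3 and 2 and 11.2% to 13.9% at 18 months. In 2-month replicates 1 and 3 Smc4, Ncapd2 and Anln ranked 1, 2 and 3 among the 43 by FPKM, whereas in the aged libraries Smc4 ranked 4 or 5, Ncapd2 10 and Anln 39. The Spearman correlation of FPKM across the 43 genes between 2-month replicate 2 and the aged libraries was 0.933 to 0.966. It was 0.608 to 0.620 between 2-month replicate 1 and the aged libraries and 0.953 between 2-month replicates 1 and 3. These correlations are descriptions across genes, which share each library's depth and are not independent. By order of levels, 2-month replicate 2 was thus nearer to the aged libraries than to the young libraries of its own age.

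**Figure D4:**
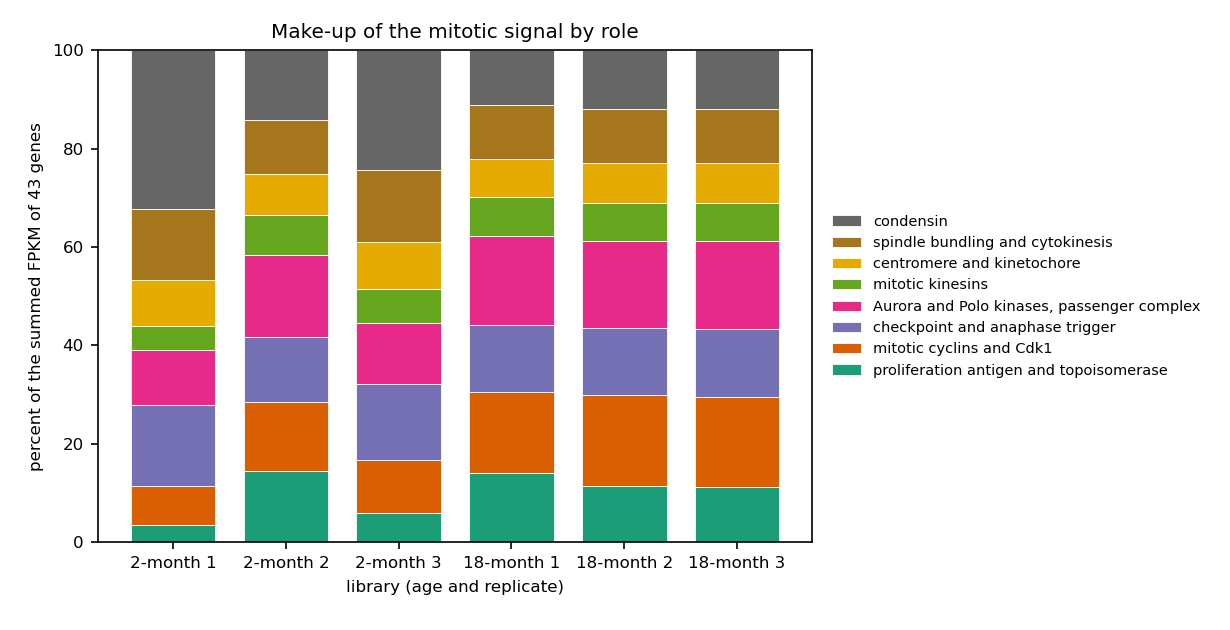
Percent of the summed FPKM of the 43 members (vertical axis) that each role group took in each library (horizontal axis). Condensin takes 32.2% and 24.3% in 2-month replicates 1 and 3, and 2-month replicate 2 resembles the aged libraries.

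Mitotic genes outside the 43 had a smaller median difference. Of 79 other genes of the kinetochore, spindle, condensin and cohesin, 41 were called higher and 0 lower by edgeR, with a median log2 fold change of 2.17. At an unadjusted p below 0.05 there were 68 higher and 5 lower, and DESeq2 called 57 higher and limma 58, with 0 lower in either. Of all genes, edgeR called 14.9% higher, DESeq2 16.1% and limma 20.3%, and 27.6% were higher at an unadjusted p below 0.05. Single libraries mattered here too (58 higher and a median of 2.95 without 2-month replicate 2, 22 higher without 2-month replicate 3, and 24 without 18-month replicate 2 or 3). Among centromere, kinetochore and checkpoint genes 24 of 35 were called higher, with a median of 2.45. Ska1 and Cenph, which link the kinetochore to microtubules and to the centromere, had the largest changes called, 3.42 and 3.31. Hjurp, which loads Cenpa onto centromeres, had the highest level of this list and already an FPKM of 20.7, 32.5 and 22.6 at 2 months, against 40.4, 37.9 and 39.5 at 18 months. Its log2 fold change of 0.57 ± 0.16 was below the limit of a call.

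Among spindle, centrosome and cytokinesis genes 13 of 26 were called higher, with a median log2 fold change of 2.48. Ckap2l and Kif22, a spindle protein and a motor on chromosome arms, had the largest called, 3.19 and 3.16. Numa1, which anchors the spindle poles in mitosis and lies in the nucleus between divisions, went against the list at −0.60, as did Nek7 at −0.74 and Nek6 at −0.16, and none of these 3 was called. Of 18 condensin, cohesin and separation genes 4 (22.2%) were called higher, where 14.9% of all genes were, and 15 had a log2 fold change above 0. The median of this list was 0.91. DESeq2 and limma each called 9 higher, where they called 16.1% and 20.3% of all genes. Cdca5, known as sororin, which holds sister chromosomes together until anaphase, had the largest change, 3.84 ± 1.11 (edgeR adjusted p = 0.0318), and among the genes called the condensin II subunit Ncapg2 was next with 2.30. Rad21, the cohesin subunit that also shapes chromosomes in cells that do not divide, had the highest level, with an FPKM of 44.1, 49.4 and 43.5 at 2 months and 78.6, 77.9 and 78.1 at 18 months, and a log2 fold change of 0.70 ± 0.10, below the limit of a call. Pttg1, known as securin, Pds5b and Stag1 went against this list at −0.75, −0.46 and −0.29 and were not called.

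Lists of regulators around mitosis gave unlike counts, where 14.9% of all genes were called higher. Of 20 mitotic entry regulators and late cell cycle transcription factors 14 were called higher, with a median log2 fold change of 1.96. There were 8 without 2-month replicate 3 or 18-month replicate 2 or 3. Mybl2 and Gtse1, of which Mybl2 is the Myb protein of dividing cells, had the largest changes, 3.35 and 3.05, and Foxm1, the forkhead factor of mitotic genes, rose by 2.62. Rbbp4, a histone-binding protein with the highest level of this list, had a log2 fold change of 0.99, and Lin52 and Arpp19 went against the list at −0.72 and −0.11, all 3 not called. Of 17 genes of the anaphase-promoting complex and its partners 4 were called higher, with a median of −0.07. Those 4 were Fbxo5, an inhibitor of the complex, with 2.92, the activator Fzr1 with 1.71, Ube2s with 1.61 and the subunit Anapc15 with 1.20. Anapc5, the most abundant, had an FPKM of 52.6, 51.0 and 55.3 at 2 months and 44.0, 43.9 and 41.6 at 18 months, a log2 fold change of −0.38 ± 0.12 that was below the limit of a call. Together these 17 genes took 0.121% to 0.126% of the counts at 2 months and 0.129% to 0.135% at 18 months, while the 43 members went from at most 0.201% to at least 0.656%. Without 2-month replicate 2 the median of the complex was −0.19, with 4 genes called higher.

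Erythroid and neutrophil precursor markers were, like the members, higher in each aged library than in each young one, as were 33.9% of all genes tested. Few of these markers were called by edgeR. Erythroid precursor genes took 0.0333%, 0.699% and 0.0814% of young counts and 2.78% to 3.66% of aged counts. Of the 13 found 4 were called higher, where 14.9% of all genes were. With any library other than 2-month replicate 2 left out, 0 of the 13 were called. Hba-a1 and Hbb-bs, globins with near-identical gene copies that can share reads, had log2 fold changes of 3.63 and 3.78. The defining genes Gata1, Epor and Rhag had 0 counts in 2-month replicate 1. Neutrophil precursor genes, which include those of primary granule proteins made by dividing promyelocytes, took 4.96e-05%, 0.0431% and 0.000226% at 2 months and 0.411% to 0.443% at 18 months. Their median log2 fold change was 5.02. By edgeR 0 of the 7 were called, also 0 at an unadjusted p below 0.05, while DESeq2 called 3 and limma on log2(FPKM + 0.1) called 7. Over all genes, DESeq2 called 16.1% higher and limma 20.3%.

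2-month replicate 2 was the highest young library for the members and for both lists of precursor markers. Relative to the aged mean, 2-month replicates 1, 2 and 3 held 3.27%, 30.4% and 5.50% of the members' share of counts, 0.989%, 20.8% and 2.42% of the erythroid share and 0.0117%, 10.2% and 0.0535% of the neutrophil precursor share. Ctsg, Ms4a3, Fcnb and Cebpe had 0 counts in 2-month replicate 1, and Elane and Ms4a3 had 0 in replicate 3. Blood stem and progenitor markers stood at 6.95%, 35.9% and 8.58% of the aged mean. Of these 8 genes 3 were called higher, where 14.9% of all genes were. That fell to 1 without 2-month replicate 3 or any 1 of the 18-month libraries. The part of these cells in the mitotic result was not tested.

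Not every marker list followed the members in every young library. B cell precursor genes were at 171% of the aged mean in 2-month replicate 2, but at 5.20% and 6.94% in replicates 1 and 3. Of these 12 genes 0 were called by edgeR, DESeq2 or limma, nor any at an unadjusted p below 0.05. Osteoclast markers were at 254% of the aged mean in 2-month replicate 2 and at 4.10% and 49.7% in replicates 1 and 3, again with 0 of 7 called by any of these tools or at an unadjusted p below 0.05. Osteoblast and osteocyte markers were at 514% in 2-month replicate 2 and at 151% and 175% in replicates 1 and 3. Of these 10 genes 4 were called lower, where 21.3% of all genes were. With 2-month replicate 2 left out, 4 of the 10 were called higher and 4 lower, where 23.3% and 21.3% of all genes were. By summed share of counts, 2-month replicate 2 was above each aged library for these 3 lists and below each of them for the mitotic genes. Of the 12 B cell precursor genes, 11 had a fitted log2 fold change above 0 and 1 below. The part of these cells in the mitotic result was not tested either.

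Other lists were described in the same way. Called higher were 7 of 8 megakaryocyte, 5 of 10 T and NK cell and 3 of 10 monocyte and macrophage markers. So were 2 of 6 plasma cell, 1 of 7 endothelial (14.3%) and 1 of 3 adipocyte markers. The same limits called 14.9% of all genes tested higher and 21.3% lower. The endothelial count was thus near the share of all genes. Neutrophil markers of the later granules had 0 of 10 called by edgeR, 2 at an unadjusted p below 0.05, 8 by DESeq2 and 9 by limma, with 9 that did not overlap between the ages. Of all genes tested, 33.9% were likewise higher without overlap, and 27.6% were higher at an unadjusted p below 0.05. DESeq2 called 16.1% of all genes higher and limma 20.3%. Of 8 synovial and tendon fibroblast markers 2 were higher and 3 lower, and 6 of 7 muscle markers were lower. These counts too depended on single libraries. Without 2-month replicate 2, all 13 erythroid, all 7 neutrophil precursor, 11 of 12 B cell precursor and all 10 T and NK cell genes were called higher. That fit called 23.3% of all genes higher. Without any 1 of the other 5 libraries, 0 of the erythroid, 0 of the neutrophil precursor and 0 of the B cell precursor genes were called. Those 5 fits called 9.81% to 12.5% of all genes higher. T and NK cell calls fell to 3 without 2-month replicate 1 or 3 and to 1 without any 1 of the 18-month libraries, and megakaryocyte calls to 3 without 18-month replicate 2 or 3. Of monocyte and macrophage markers 1 was called when any 1 of the 18-month libraries was left out and 0 when 2-month replicate 3 was. All 10 of them, with 9 neutrophil, 6 endothelial and 3 adipocyte markers, were called higher without 2-month replicate 2.

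**Figure D5:**
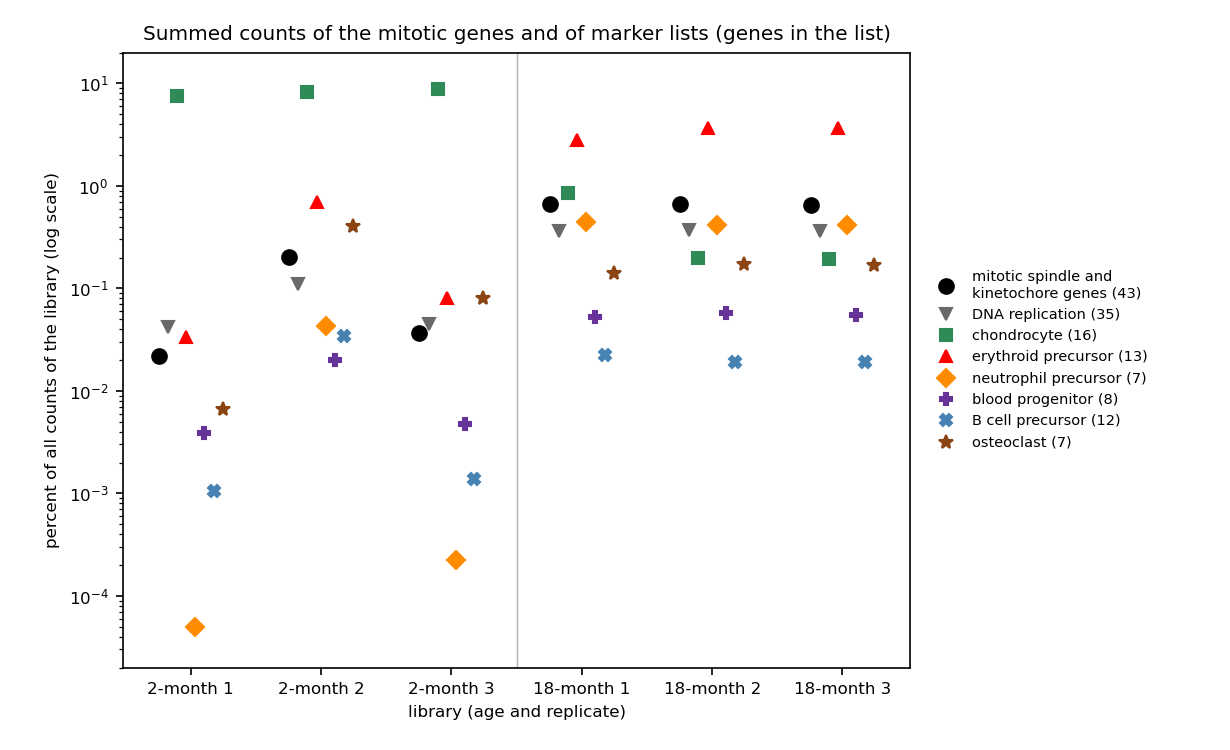
Percent of all counts of a library (vertical axis, log scale) taken by the 43 mitotic genes (black circles), by 35 DNA replication genes and by marker lists, for each library (horizontal axis). Points of 1 library are set side by side for legibility, and mitotic, erythroid and neutrophil precursor genes are each highest among the young libraries in 2-month replicate 2 and higher still in all aged ones.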

How the data were processed

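Poly(A)-selected, strand-specific RNA libraries of articular cartilage from 3 samples of 2-month-old and 3 of 18-month-old mice were analysed, grouped by age from the labels, with each library as its own sample. The deposited table holds raw counts, which are whole numbers, and FPKM values, which the authors had scaled for transcript length and library size. The submitters' processing notes name cutadapt 1.9, HISAT2 2.0.4, UMI-tools, StringTie 1.3.4d, DESeq2 and edgeR without roles, and whether counting used strand is not given in the sources used here. All columns with values per library were used. The library totals were 48171507 to 59085179 counts.

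The counts were fitted with edgeR 4.0.16 under R 4.3.3 (TMM normalization, filterByExpr, quasi-likelihood test, no replicate block), adjusted by Benjamini-Hochberg over the 20397 genes tested. A call needs an adjusted p below 0.05 and a log2 fold change above 1 or below −1. Standard errors were derived from the F statistic, as log2 fold change over its square root. FPKM served for levels and for limma 3.58.1 with trend on log2(FPKM + 0.1). DESeq2 1.42.0 was an alternative, and the others are named with their effects in the closing section. The edgeR script was tested on simulated data. Coordinates are those of the table, and 41 of the 43 members match GENCODE M21 (GRCm38) exactly, on 17 chromosomes. Promoters were read from RefSeq with pandas 2.3.3, and figures were drawn with matplotlib 3.10.9. Sums over lists are shares of all counts, with Wilson 95% intervals for the 43 members alone.

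The members, the other gene lists and the marker lists were chosen with earlier results of these data known, and lists were described by counts and medians, with no test of a list. Values in every library are given for the members with the highest FPKM and the largest and smallest log2 fold change of each role group, and for Mki67, Cdk1, Ccnb1 and Kif4. Of other pathway lists, the gene with the highest FPKM, the 2 largest changes called and genes against the list's direction are named. The uncalled members and Foxm1, Ube2s, Anapc15, Ccnd3 and Cdkn2a were named after their values were seen, and marker lists are given mostly as counts. The marker genes Ahsp and Lep are not in the table used here.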

Additional observations from a re-analysis of the deposited data

How the results depend on the processing

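Every member's log2 fold change stayed above 0 in all 17 alternatives, and counts of calls moved more than the fold changes. Of the 43 members 33 were called by the main fit, where 14.9% of all genes tested were called higher. There were 35 with median-of-ratios size factors, 25 with total counts alone and 29 with TMM without the 100 most abundant genes. DESeq2 and each limma fit called 43. Of all genes, DESeq2 called 16.1% higher and limma on log2(FPKM + 0.1) 20.3%. Without a filter on low counts 15 were called, and 3 when edgeR's glmTreat tested against a fold change of 2 (Mad2l1, Spc25 and Smc2). Leaving out 1 library at a time gave 5 to 43 calls, where 9.81% to 23.3% of all genes were called higher. The median log2 fold change was then 2.51 to 4.88 around 3.01. For the other fits named in this section the share of all genes is not given here, and their counts describe the listed genes alone. Of the 79 other mitotic genes 41 were called, and 18 against a fold change of 2. Leaving out 1 library gave 22 to 58, with a median of 1.96 to 2.95 around 2.17. Summing 18-month replicates 2 and 3, which differed least of all pairs, left 8 members and 25 other genes called, an alternative added after seeing the data, with fewer libraries. The osteoclast marker Ctsk, at 0.36 and not called, ranged from −0.18 without 2-month replicate 1 to 1.95 without replicate 2.

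With the replicate number as a block, 36 members were called with a median log2 fold change of 4.0, and 46 of the other genes with 2.48. The numbers are not said to pair the libraries, and the correlations of their deviations from the group means were 0.03, 0.04 and −0.02 for equal numbers. With so few libraries per age, such correlations cannot exclude a pairing.

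At 48171507 counts or more per library, every member was above 3 counts in each library, so the spread of the young libraries limits these results more than depth does.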

Other observations

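Genes that copy DNA ahead of mitosis moved with the mitotic genes. Of 35 genes for the licensing and running of replication forks, 32 were called higher at 18 months and 0 lower by edgeR (35 higher and 0 lower at an unadjusted p below 0.05, 33 higher with DESeq2 and with limma), and 26 to 33 when 1 library was left out. Their median log2 fold change was 2.50. Of all genes tested, edgeR called 14.9% higher. Pcna, the sliding clamp of the fork, had the highest level, with an FPKM of 16.1, 42.6 and 17.5 at 2 months and 141, 154 and 149 at 18 months. Rrm2, the subunit of ribonucleotide reductase made in S phase, had the largest change, 3.63 ± 1.12, and Mcm5, part of the replicative helicase, was next among the genes called with 3.23 ± 0.91. The list took 11.4%, 30.2% and 12.2% of its mean aged share in 2-month replicates 1, 2 and 3, where the 43 mitotic genes took 3.27%, 30.4% and 5.50%.

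Genes that decide whether a cell enters the cycle differed in direction. Of 8 G1 cyclins and kinases 5 were called higher and 2 lower, where 14.9% of all genes were called higher and 21.3% lower. The E-type cyclins Ccne1 and Ccne2 rose by 3.51 and 2.33, and Ccnd3 by 1.73. Cdk4, the kinase with the highest level of these, had a log2 fold change of 0.54 and was not called. Ccnd2 and Ccnd1, the D-type cyclins, fell by 1.97 and 1.52, and both were called lower whichever library was left out, where 4 or 5 of the 8 were called higher, or 3 without 2-month replicate 3. Ccnd2 had 14608, 10320 and 13121 counts at 2 months and 4864, 3534 and 3499 at 18 months, and Ccnd1 had 3242, 3555 and 3362 against 1570, 1398 and 1316. For Ccnd2 2-month replicate 2 was the young library nearest to the aged ones, while the 3 young libraries were close together for Ccnd1.

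Of 11 inhibitors of the cycle 4 were called higher and 2 lower, and 3 or 4 higher and 2 lower when 1 library was left out. With all 6 libraries, 14.9% of all genes were called higher and 21.3% lower. Cdkn1c and Cdkn1a, which hold cells out of the cycle, fell by 3.24 and 1.87, and Cdkn1c had an FPKM of 24.9, 17.7 and 20.2 at 2 months and 2.61, 2.37 and 2.06 at 18 months. Cdkn2d, an inhibitor of the kinases of D-type cyclins, rose by 2.85, from 7.97, 13.6 and 6.33 FPKM to 59.0, 75.7 and 73.8 FPKM. Cdkn2a, a marker of senescent cells, had 0, 5 and 8 counts at 2 months and 57, 15 and 25 at 18 months and was not called (edgeR adjusted p = 0.0909). Cdkn2b and Rbl2, at −1.31 and −0.53, were not called either.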
